A study of Mus musculus with 2 samples.

Results

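The genes that encode the proteins of the cytosolic ribosome were followed through 2 single-cell libraries of sorted mouse thymus cells. They were chosen by symbol: Rpl or Rps followed by a digit, with Rplp0, Rplp1, Rplp2 and Rpsa, and without Rps6k kinase genes and pseudogene symbols. The rule took 86 of the 32285 genes in the count tables: 31 encode proteins of the small (40S) subunit, 46 encode proteins of the large (60S) subunit, and 9 are paralogs or genes that are not subunit genes. The control library came from the thymus of Tbx21Cre Rosa26-YFP+ mice, and the cKO library from Tbx21Cre Ets1F/F Rosa26-YFP+ mice, in which Ets1, the gene of an ETS family transcription factor, carries loxP sites. Both groups carry the Cre, which is driven by Tbx21, the gene of T-bet, and the YFP reporter that it switches on, so YFP marks cells with a history of Tbx21 expression. The titles call the sorted cells iNKT1, natural killer T cells of the T-bet+ type. The labels used here state no age. Each library is a pool of 2 mice whose cells cannot be told apart. With 1 library per genotype there is no test and no p-value. All intervals are exact 95% intervals and cover counting error only. Unique molecular identifiers (UMIs), which count captured RNA molecules, were summed over cells and expressed as CPM, the count scaled to a fixed total of UMIs of the same cells.

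The ribosome is built from a small and a large subunit, each made of ribosomal RNA and one copy of most of its proteins. The messenger RNAs of these proteins are among the most abundant in a lymphocyte. They begin with a pyrimidine-rich tract at the 5' end, the TOP tract, which lets growth signals through mTOR regulate their translation together. Resting and activated T cells differ in how much of their RNA goes to this set, and paralogs such as Rps27l and Rpl39l take the place of a subunit protein in some cells.

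A cell was kept if it had 500 genes or more and no more than 10% mitochondrial UMIs. The control library kept 7395 cells (median depth 2666 UMIs) and the cKO library 5903 (5533). The mitochondrial limit failed 6.76% of control and 28.6% of cKO barcodes, and the kept cells of the 2 libraries shared 14 barcode sequences. In T-like cells Ets1 had 532 CPM in the control library against 167 in the cKO library, a log2 ratio of -1.67. Cells were clustered without the ribosomal protein genes, so the clusters do not rest on them. The T-like class joins clusters 0, 1, 3 and 4, and all 14 T cell markers of the list reached 20 CPM in both libraries. Cd8a stood there at 7.2 and 7.4 CPM, Cd79a at 1.4 and 2.2, Ncr1 at 1.7 and 0.7, and Rag1 at 0.2 and 0.1, control first. The gut-led class, clusters 13, 15, 18 and 19, held 1820 cells, all of the cKO library, with all 18 genes of the gut list at 20 CPM or more and Cd3e at 6.0 CPM. These cells are led by genes of intestinal epithelium, such as Defa30, Agr2, Reg3b and Olfm4, which goes against the label of the sort. A gut-list UMI was held by 51.1% of cKO and 4.07% of control T-like cells, and that list made 0.02% of the UMIs of cKO T-like cells.

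Ribosomal protein genes took a smaller share of UMIs in the cKO library as a whole, and the size of the difference depended on the cell class. In all kept cells the share was 33.2% in control and 24.97% in cKO, a ratio of 0.753. In T-like cells it was 33.1% in control and 25.7% in cKO, a ratio of 0.777 with an interval of 0.776 to 0.778. The medians over single T-like cells, 32.7% and 23.8%, lay further apart than the summed shares. Mitochondrial UMIs went from 4.32% to 2.67% and Malat1, a nuclear RNA, from 2.05% to 3.06% in the same cells, and their part in the result was not tested. CD8 T-like cells had 39.3% in control and 26.6% in cKO, the highest control share of these classes. Here the libraries filled different clusters: 540 of 607 control cells lay in cluster 6, and 408 of 430 cKO cells lay in cluster 2. Within cluster 2 the shares were 32.1% and 26.1%, and within cluster 6 they were 40.2% and 37.0%. Medians over cells were 32.5% and 25.3% in cluster 2, but 38.6% and 38.5% in cluster 6, which are close. The 22 cKO cells of cluster 6 were deeper than its control cells, with medians of 10759.5 and 3881.5 UMIs.

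Outside the T-like cells the difference varied in size and direction between classes. NK-like cells had 28.4% in control and 28.0% in cKO, a ratio of 0.986, but their medians over cells were 29.6% and 27.4%. Their median depths were 2011 and 9162 UMIs, so the summed shares compare cells of different depth. From 5000 to under 8000 UMIs they had 27.3% and 24.6% (81 and 28 cells), and at 8000 or more 29.6% and 28.9% (58 and 96 cells). B-like cells had a larger summed share in cKO, 31.7% against 28.5%, but their medians over cells were 32.8% and 32.7%. The 11 genes of the B cell marker list, immunoglobulin genes among them, took 86192 CPM in control and 44981 in cKO B-like cells. The 14 genes of the T cell marker list took 3328 CPM in control and 868 in cKO B-like cells. The part of either list in the share was not tested. The 37 control B-like cells with 8000 UMIs or more were at 24.3%, against 31.9% in 181 such cKO cells, with medians over cells of 29.8% and 33.4%. Under 1500 UMIs the order turned, with 32.0% in 167 control and 29.3% in 39 cKO cells, and from 1500 to under 3000 UMIs it was 32.6% and 29.98% (135 and 24 cells). DP-like cells, CD4 CD8 double-positive thymocytes by Rag1 and Dntt, had 27.8% in 103 control cells and 19.05% in 55 cKO cells. Cluster 7, led by Tnfrsf4, Penk, Ctla4 and Foxp3, had 31.1% and 28.2%. The gut-led cells of the cKO library were at 13.9%, below every class above, and without them and the stromal clusters the ratio over all cells was 0.803. Both subunits took part, with T-like 40S ratio 0.755 and 60S ratio 0.794, so that 60S over 40S UMIs went from 1.19 to 1.25.

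**Figure D1:**
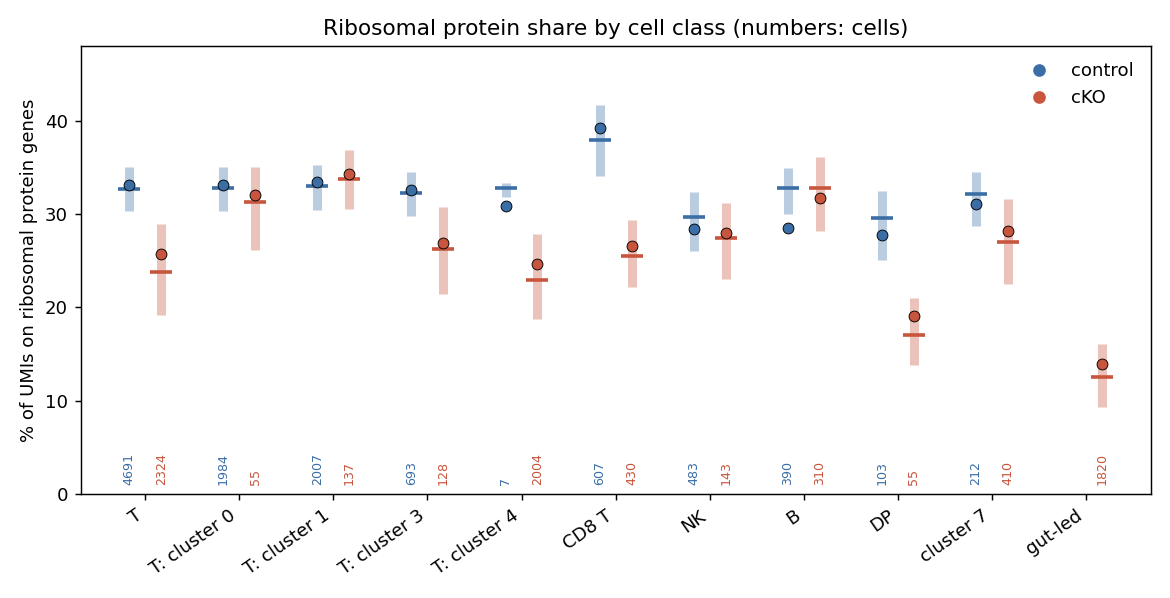
Share of UMIs on ribosomal protein genes (vertical axis, percent) by cell class and by cluster within the T-like class. Points are the summed share of a library, horizontal dashes the median over cells, pale bars the middle 50% of cells, and the small numbers the cells. The control values of T-like clusters 0, 1 and 3 lie between 32.5% and 33.4%, and the cKO value is near them in clusters 0 and 1 only.

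Within the T-like class the difference lay in some clusters and not in others. Cluster 0, led by Klra9 and other natural killer receptor genes, had 33.1% in 1984 control cells and 32.1% in 55 cKO cells. Cluster 1, led by Izumo1r, had 33.4% in 2007 control cells and 34.3% in 137 cKO cells. Cluster 3, led by interferon-induced genes such as Ifit3b, had 32.5% and 26.9% in 693 and 128 cells. Cluster 4, led by Fxyd7, held 2004 of the 2324 cKO T-like cells but 7 control cells, with shares of 24.6% and 30.8%. Without cluster 4 the T-like ratio was 0.947 instead of 0.777, from 320 cKO cells at 31.4%. These 320 were picked by their resemblance to control cells in other genes and are not a random draw of the library. The share of cluster 4 was 0.768 of that in cluster 0, 0.718 of cluster 1 and 0.915 of cluster 3, all within the cKO library. Fewer ribosomal protein transcripts and more of other transcripts cannot be told apart in a share, and the log2 ratio of the share of all other genes in T-like cells was 0.15.

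The share was larger in deep than in shallow cKO T-like cells and varied less with depth in control cells. Control bins by UMIs per cell lay between 31.7% and 34.5%. The cKO bins were at 12.5% under 1500 UMIs (53 cells), 9.99% from 1500 to under 3000 (120 cells), 20.1% from 3000 to under 5000, 23.3% from 5000 to under 8000 and 29.6% at 8000 or more. The Spearman correlation of share with UMIs over cells, a description in which the UMIs enter both sides, was 0.19 in control and 0.58 in cKO. In the shallow cKO bins other values moved with the share. Mitochondrial genes took 5.53% and 5.84% of UMIs in the lowest bins against 2.43% to 2.71% in the others. Malat1 took 9.42% and 8.42% there against 2.44% to 3.84%. Cells with under 10% of UMIs on ribosomal protein genes were 124 of the cKO and 4 of the control T-like cells, and their part in the class difference was not tested. In cells of 3000 UMIs or more the ratio was 0.784. At 8000 UMIs or more, cluster 0 had 34.2% in control and 34.0% in cKO, cluster 1 had 34.9% and 35.6%, and cluster 4 had 28.2% in cKO. From 5000 to under 8000 UMIs cluster 1 had 32.5% in control and 29.6% in 36 cKO cells, the other way round. Median depths in cluster 1 were 4376 UMIs in control and 9214 in cKO, so its summed shares compare cells of different depth.

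**Figure D2:**
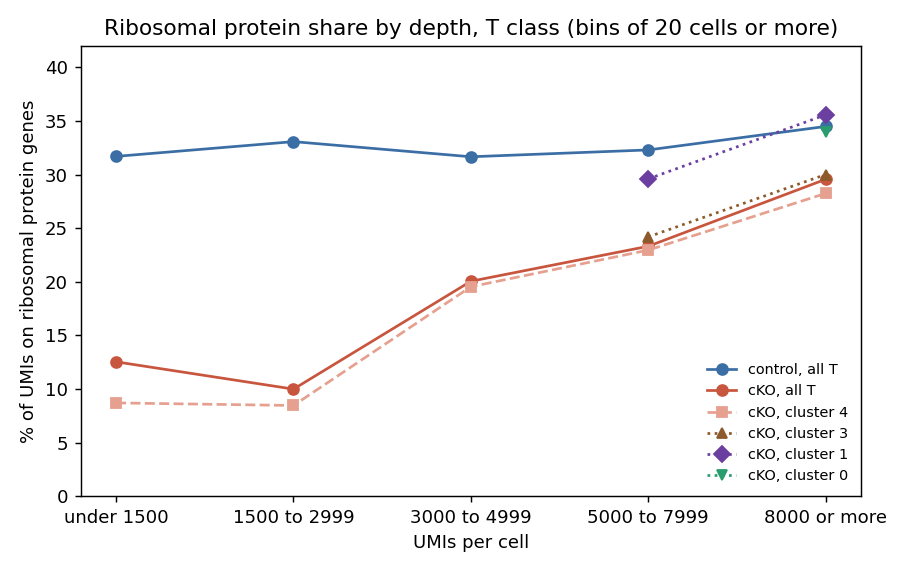
Share of UMIs on ribosomal protein genes (vertical axis, percent) against UMIs per cell in 5 bins, T-like cells. Lines join summed shares of bins with 20 cells or more. The control line stays between 31.7% and 34.5%, the cKO line lies between 9.99% and 29.6%, and the cKO cells of clusters 0 and 1 reach the control line at 8000 UMIs or more.

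Most members tested in T-like cells had a ratio below 1, as the sum did. In T-like cells 83 of the 86 reached 20 CPM in the higher library, and 71 of them had a ratio of cKO to control below 1. Their median log2 ratio was -0.38, beside 0.18 over all 5919 genes at that level. By the size rule, which asks for a ratio of at least 1.5 in either direction and an interval without 1, 12 members were lower and 1 was higher. Over all genes, 6.15% were lower and 14.4% were higher. Scaling by the median ratio over genes, which moved all log2 ratios down by 0.16, gave 33 lower and 0 higher members, where 8.73% and 8.92% of all genes were lower and higher. Without cluster 4 no member was lower and 1, Rps28, was higher, against 5.06% and 8.38% of all genes; Rps28 was also the 1 member above its common ratio, with 0 below (11.5% and 4.06%). The ratio of the summed members, here the common ratio, was 0.777, and 41 of the 77 subunit genes lay within 0.2 of it on the log2 scale. The sum is made of these genes, and no such count was made for other genes. Members with 500 CPM or more had a standard deviation of 0.28 in log2 ratio over 79 genes, against 1.60 over the 177 other genes at that level. Their quartiles lay closer in width, at -0.53 and -0.14 for members and -0.17 and 0.58 for other genes. A ratio off the common ratio by 1.5-fold was found for 7 members above and 1 below, where all genes gave 44.6% and 2.79%. Here and wherever the common ratio is used, all genes are set against the members' own sum. In T-like cells that sum is at -0.36 on the log2 scale and the median of all genes at 0.18. The shares of all genes depend on this offset and do not show how closely members hold together.

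Among 40S genes, 7 of 31 were lower in T-like cells. Rps19, a 40S protein whose human gene is mutated in Diamond-Blackfan anaemia, was at 4574 CPM in control and 2449 in cKO, a log2 ratio of -0.90. Rps16 was at 7012 and 3794 CPM (-0.89), and Rpsa, which is also known as the laminin receptor precursor, at 6998 and 3965 CPM (-0.82). Rps4x, Rps18, Rps6 and Rps13 had log2 ratios from -0.68 to -0.59. Rps6, the substrate of S6 kinase, was at 2465 CPM in control and 1630 in cKO. Rps28 and Rps29 lay above the common ratio, with Rps28 at 2324 CPM in control and 2889 in cKO, a log2 ratio of 0.31. Rps29 was at 6006 and 7133 CPM, a log2 ratio of 0.25. Rps24 and Rps15a, among the 6 members with the highest CPM in all kept cells, had log2 ratios of -0.58 and -0.35.

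Among 60S genes, 5 of 46 were lower. Rpl12, a protein at the base of the ribosomal stalk, had the lowest ratio of all members and was the one member below the common ratio. It was at 5270 CPM in control and 2502 in cKO, a log2 ratio of -1.08 with a ratio interval of 0.469 to 0.480. Rplp0, the stalk protein that holds the P1 and P2 proteins, was at 4848 and 3037 CPM, a log2 ratio of -0.67. Its partners Rplp1 and Rplp2 had log2 ratios of -0.50 and -0.10, so the stalk genes did not share 1 ratio. Rpl23, Rpl10a and Rpl17 had log2 ratios of -0.65, -0.64 and -0.61. Rpl31, Rpl41 and Rpl35 lay above the common ratio, with log2 ratios of 0.26, 0.25 and 0.24. Rpl13, also among those 6, was at 7827 and 5417 CPM, a log2 ratio of -0.53. Rpl5 and Rpl11, which bind Mdm2 when ribosome assembly is disturbed, had log2 ratios of -0.25 and -0.35, close to the sum.

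Among paralogs and genes that are not subunit genes, only Rps19bp1 and Rps27l lay above the common ratio in T-like cells, where 44.6% of all genes did. Rps19bp1, which encodes a protein that binds Rps19 and not a subunit, was counted at 35.2 CPM in control and 53.1 in cKO T-like cells. It was the single member past the size rule upward, and it was not past it with median scaling. Rps27l, a paralog of Rps27 induced by p53, was at 136 and 192 CPM there (log2 ratio 0.50). In all kept cells Rps27l was the one member past the size rule upward, at 142 and 244 CPM, against 16.3% of all genes upward and 5.33% downward, and 11 members were downward. There Rps27l and Rps19bp1 lay above the common ratio and Rpl12 below it, beside 48.4% and 2.06% of all genes. The gut-led cells carried Rps27l at 463 CPM. Rpl39l, a paralog of Rpl39, was counted 119 times in control and 4 times in cKO T-like cells, a level under 20 CPM. Rpl36al, Rpl7l1 and Rps27rt, a near-copy of Rps27 whose count is uncertain, had log2 ratios of 0.06, 0.02 and -0.02, and Rpl22l1, a paralog of Rpl22, of -0.45. Rpl3l, the striated muscle paralog of Rpl3, and Rpl10l, the testis paralog of Rpl10, had no UMI in T-like cells of either library, which allows up to 0.133 CPM in control and 0.18 in cKO.

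**Figure D3:**
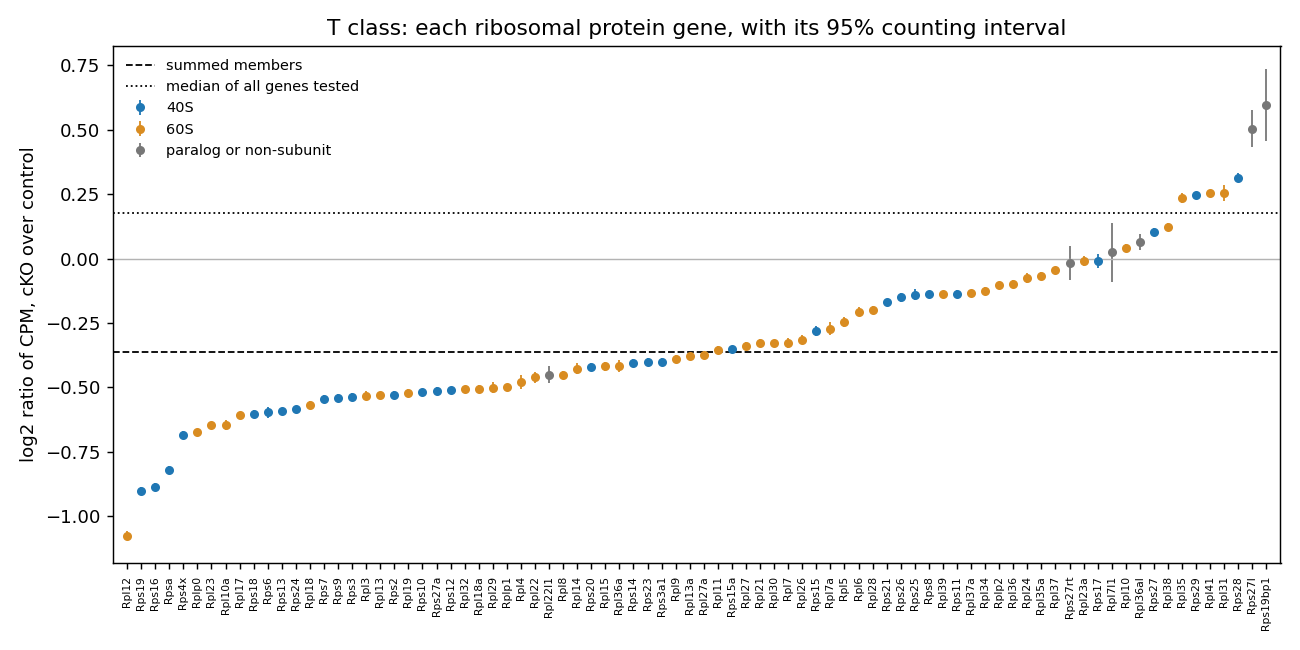
Log2 ratio of CPM, cKO over control (vertical axis), of the ribosomal protein genes tested in T-like cells, ordered by ratio, with 1 tested member not drawn; bars are 95% counting intervals. The dashed line is the ratio of the summed members (-0.36) and the dotted line the median of all genes tested (0.18). Rpl12 lies lowest at -1.08 and Rps19bp1 highest at 0.59.

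Some members lay on the same side of the common ratio in every class, which share the 2 libraries and are not separate evidence. Of 83 members tested in T-like, CD8 T-like, NK-like, B-like and DP-like cells, 24 lay above the common ratio of the class in all 5 and 25 below it in all 5. This count asks for the side only, with no fold or interval rule, unlike the calls off the common ratio. It was not made for all genes. Rpl12 had log2 ratios of -1.34 in CD8 T-like, -0.64 in NK-like, -0.20 in B-like and -1.03 in DP-like cells. Relative to the common ratio of each class these were -0.78, -0.62, -0.36 and -0.48. Rps28 was past the size rule upward in NK-like cells, at 1951 CPM in control and 3080 in cKO, and in B-like cells, at 2054 and 3507 CPM. In cluster 1 Rps28 was at 2372 CPM in control and 4016 in cKO. Rpl12 there was at 5490 and 4194 CPM. Rps27l was past the rule upward in CD8 T-like cells (131 and 213 CPM) and NK-like cells (171 and 279 CPM), and in B-like cells it was at 196 and 187 CPM.

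Counts of members past the size rule differed between classes. CD8 T-like cells had 33 lower and 1 higher, where all genes gave 8.21% and 26.9%. Within cluster 2, which held most of the cKO cells, 6 were lower and 2 higher (7.36% and 11.5% of all genes), and within cluster 6, which held most of the control cells, 0 and 0 (3.36% and 11.8%). DP-like cells, whose depth differed between the libraries, had 36 lower and 0 higher, against 5.55% and 11.3%. NK-like cells had 1 lower (Rpl12) and 2 higher (Rps27l and Rps28), against 9.53% and 8.75%. B-like cells had 0 lower and 6 higher (Rps27, Rps27rt, Rps28, Rps29, Rpl35 and Rpl38), against 8.19% and 14.3%. Off the common ratio of the class, CD8 T-like cells had 5 members above and 2 below (Rpl12 and Rps16), beside 70.5% and 2.83%. DP-like cells had 7 above and 2 below, Rpsa among the latter, beside 31.7% and 2.11%. NK-like cells had 2 above and 1 below, beside 9.53% and 9.09%, and B-like cells had 4 above and 0 below, beside 9.7% and 11.8%.

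Subunit genes with a short coding sequence had higher ratios than the rest. The 77 subunit genes were split into 25 under 400 coding bases, 30 from 400 to under 600, and 22 of 600 or more. In T-like cells the median log2 ratio relative to the sum was 0.23 for the short, -0.14 for the middle and -0.10 for the long genes. Spearman's rho over these genes, a description in which all genes share the same libraries, was -0.52. It was -0.49, -0.52 and -0.55 in clusters 0, 1 and 3, -0.45 in NK-like, -0.74 in B-like, -0.38 in CD8 T-like and -0.33 in DP-like cells. Between T-like clusters of the cKO library, for cluster 4 over clusters 0, 1 and 3, it was -0.21, -0.18 and 0.08. Between clusters 2 and 6 it was -0.03 in control and 0.12 in cKO. Among T-like and CD8 T-like clusters, rho within 1 library was thus nearer 0 than between the libraries. Genotype and library preparation cannot be told apart here.

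Other genes were compared in the same way. Over the 2165 other genes of T-like cells with under 1000 coding bases, rho was -0.14. Over all 5716 other genes, the median log2 ratio of the short ones exceeded that of those of 600 bases or more by 0.13, against 0.33 among ribosomal protein genes. In B-like cells the corresponding differences were -0.12 and 0.34. These differences take in other genes of any coding length. Among other genes with under 1000 coding bases the difference was 0.15 in T-like and -0.014 in B-like cells.

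**Figure D4:**
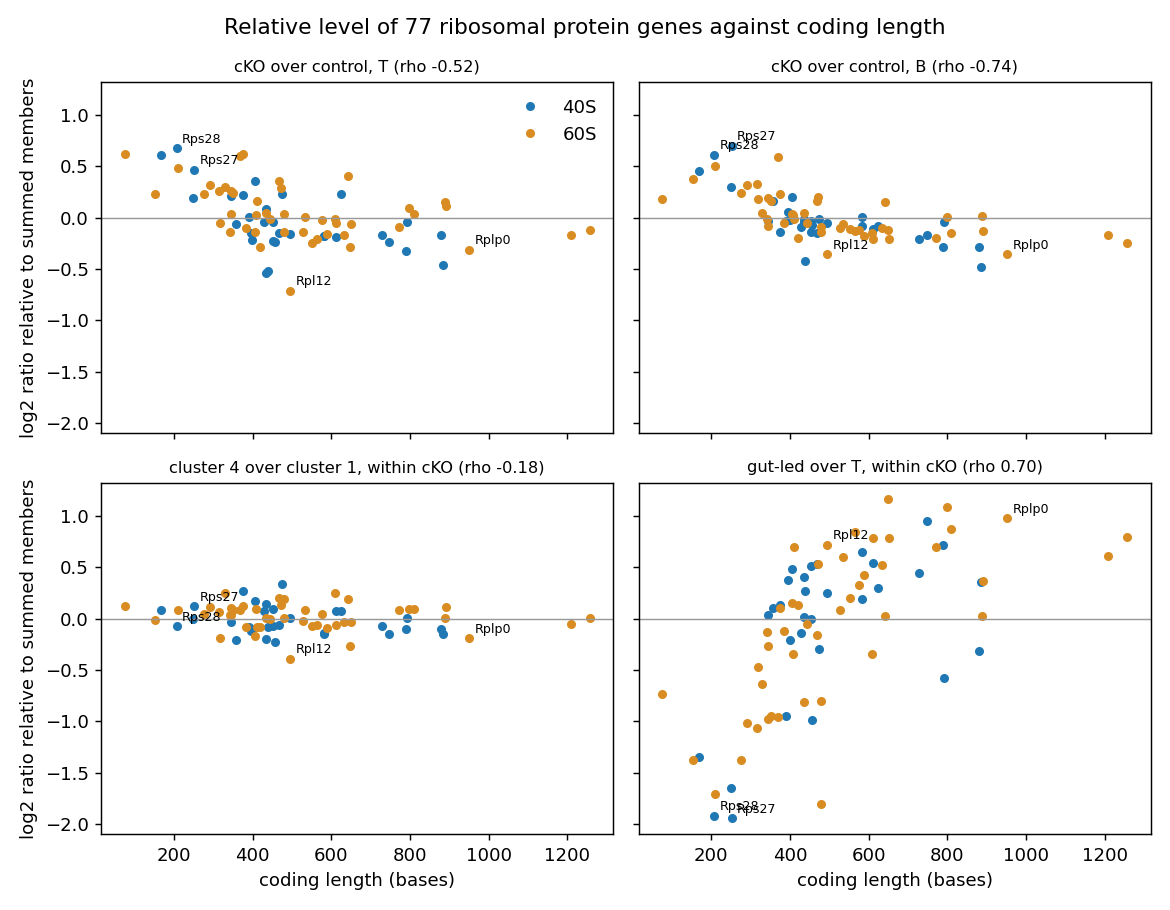
Log2 ratio of each of 77 subunit genes relative to the ratio of the summed members (vertical axis) against coding length in bases (horizontal axis), in 4 comparisons; blue points are 40S genes and orange points 60S genes. Short genes lie high in cKO over control in T-like and B-like cells (rho -0.52 and -0.74), lie near 0 between clusters of the cKO library (-0.18), and lie low in gut-led over T-like cells (0.70).

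Gut-led cells had another mixture of these transcripts than T-like cells of the same library. Against a common ratio of 0.542, 20 members were above and 20 below by 1.5-fold, where all genes gave 52.7% and 17.5%. Rps27 was at 5234 CPM in T-like and 736 CPM in gut-led cells, a relative log2 ratio of -1.95. Rps28 followed with 2889 and 414 CPM (-1.92), Rpl29 with 1465 and 227 CPM (-1.80), Rpl38 with 3243 and 536 CPM (-1.71), and Rps21 with 4422 and 766 CPM (-1.65). At the other end, Rps27l was at 192 and 463 CPM (2.15), Rpl10a at 1848 and 2244 CPM (1.16), Rpl7a at 1189 and 1368 CPM (1.09) and Rplp0 at 3037 and 3242 CPM (0.98). The paralogs Rps27 and Rps27l, each with 252 coding bases, lay at opposite ends. Rps27 shares exact stretches with other genes, so its level is uncertain.

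Coding length again ran with the order, in the opposite direction. The median relative log2 ratio was -0.95 for short, 0.19 for middle and 0.58 for long genes, and rho was 0.70. It was 0.71, 0.70, 0.66 and 0.69 in clusters 13, 15, 18 and 19 taken alone, and 0.71 in the stromal cells. Cluster 19, with a median of 6173 UMIs, had a summed share of 24.7%, near that of T-like cells, and still 19 members above and 21 below, where all genes gave 35.9% and 25.9%. Rps27 there had a relative log2 ratio of -2.17 and Rps27l of 1.83. Tissue, depth and damage of these cells cannot be told apart here.

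Transcription starts of members at the ends of the T-like order are shown, because TOP tracts and ETS sites lie there. Of the 86 members, 66 had an entry in the RefSeq promoter table (GRCm38.p6), which holds 250 bases before and 50 after each start; the first entry per gene was used. The 30 bases around the start, 15 before and 15 from it on, are given 5' to 3'. Capitals mark a C with at least 4 further pyrimidines that begins within 5 bases of the start.
Rps19bp1, chr15:80264292-80264321, minus strand: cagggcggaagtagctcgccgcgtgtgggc
Rps27l, chr9:66946071-66946100, plus strand: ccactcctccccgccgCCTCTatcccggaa
Rps28, chr17:33824548-33824577, minus strand: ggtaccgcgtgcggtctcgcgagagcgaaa
Rpl12, chr2:32961697-32961726, plus strand: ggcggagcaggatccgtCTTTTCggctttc
Rps19, chr7:24884577-24884606, plus strand: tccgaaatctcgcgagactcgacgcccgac
Rps16, chr7:28350674-28350703, plus strand: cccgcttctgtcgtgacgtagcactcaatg
A run of this kind was in these windows of 1 high member, Rps27l, and 1 low member, Rpl12, and not in the other 4. It was in 29 of the 66 members (43.9%), in 18.5% of all 27025 promoters and in 20.4% of the 4695 other genes tested in T-like cells. The median log2 ratio in T-like cells was -0.38 for the 29 members with the run and -0.37 for the 34 tested without it. The search looked only next to the listed start, so a tract at any other start was missed. Members without the run therefore cannot be taken to lack a TOP tract. For that reason these medians do not compare genes with and without the tract.

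Farther upstream, the 100 bases before the start were searched for a GC box, GGGCGG on either strand. Rps19bp1, Rps27l, Rpl12, Rps19 and Rps16 hold 1 each, and Rps28 holds 0. The windows of Rps27l and Rpl12 are shown, with the box in capitals.
Rps27l, chr9:66945986-66946085, plus strand: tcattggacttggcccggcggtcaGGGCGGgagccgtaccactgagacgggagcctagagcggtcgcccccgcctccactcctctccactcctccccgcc
Rpl12, chr2:32961612-32961711, plus strand: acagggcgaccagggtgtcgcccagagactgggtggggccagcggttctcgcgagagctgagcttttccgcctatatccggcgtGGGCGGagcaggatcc
Over the full 300 bases, a GC box was in 60.6% of members, in 35.9% of all promoters and in 67.3% of the 4695 other genes tested in T-like cells. The ETS core CCGGAAG, searched on both strands of the 300 bases, was in 25 of 66 members (37.9%), in 9.12% of all promoters and in 23.2% of those other genes. The median log2 ratio in T-like cells was -0.26 for the 24 tested members with it and -0.40 for the 39 without. For other genes these medians were 0.17 and 0.18. None of the 6 members shown had CCGGAAG in the 100 bases before the start, and Rps27l had 1 match elsewhere in its 300 bases. TATAAA was in 6 members (9.09%), in 14.2% of all promoters and in 6.96% of the other genes tested, and AAGATGGC, the core bound by YY1, in 5 (7.58%), in 2.88% of all promoters and in 5.94% of the other genes tested. A match is a string of letters and says nothing of binding.

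Genes around the ribosome were followed in T-like cells by lists. Rps27a, a member that encodes a ubiquitin joined to a 40S protein, had a log2 ratio of -0.51. Outside the symbol rule, Fau, which encodes a ubiquitin-like protein joined to a 40S protein, was at 6031 CPM in control and 5522 in cKO, a log2 ratio of -0.13. Rack1, a scaffold protein on the 40S subunit, was at 2470 and 1853 CPM, a log2 ratio of -0.41.

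The counts of these lists stand beside all genes tested in T-like cells, of which 14.4% were higher and 6.15% lower. Among 24 other TOP transcripts, which share the 5' tract, 1 was higher and 1 lower, with a median of -0.26. Vim, the intermediate filament gene, was at 322 and 934 CPM, and Impdh2, of guanine nucleotide synthesis, at 88.4 and 56.0 CPM. The translation factor gene Eef1b2 and Tpt1 had log2 ratios of -0.52 and -0.54. None of 44 tested ribosome biogenesis genes passed the size rule in either direction, and their median was -0.15. Ncl, of the nucleolus, had a log2 ratio of -0.46 and Ddx21, an RNA helicase, of 0.47. Of 19 tested genes of growth signalling, Myc was lower, at 56.3 and 33.4 CPM, and the S6 kinase gene Rps6kb2 was higher, at 17.2 and 27.2 CPM. The 73 tested mitochondrial ribosomal protein genes had a median of 0.13, with 1 higher (Mrpl54, 70.2 and 115 CPM) and 0 lower. Of 20 members linked to Diamond-Blackfan anaemia, 1 was lower, Rps19, and their median was -0.33.

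Many of these genes have processed copies elsewhere in the genome, and reads could be split between them by the authors' counting. In GENCODE vM21, 56 of the 86 members share at least 1 exact stretch of 90 bases in the last 300 bases of their principal transcript with another gene, and 35 share over 50% of such stretches. Over the 77 subunit genes, rho between that share and the relative log2 ratio in T-like cells was 0.13. Rpl31, Rpl35 and Rps28, above the common ratio, had 84.8%, 95.3% and 61.1% of these stretches copied, and Rpl12 had none. The levels of the first 3 are therefore uncertain. Of the genes named for gut-led cells, Rps27 had 100% copied, Rpl10a 84.8%, Rpl7a 75.4% and Rpl38 58.8%, so their levels are uncertain too. Rpl29 had 15.2%, Rps27l 3.32%, Rps21 0.474% and Rplp0 0%.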

How the data were processed

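Deposited UMI counts, whole numbers, came from 3' single-cell libraries (v2 kit) of sorted YFP+ thymus cells, 1 control and 1 cKO. Per the submitters' processing notes the authors used Cell Ranger 2.1.1 on mm10, while the matrix header names software version 3.0.0. The annotation and the counting settings are not stated in what was used here. The libraries hold 35210431 and 39979742 UMIs.

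Cells were kept at 500 genes and 10% mitochondrial UMIs. Scanpy 1.11.5 scaled cells to 10000 UMIs and clustered both libraries on 2000 variable genes without ribosomal protein, mitochondrial, receptor-segment and sex-linked genes (30 components, 15 neighbours, Leiden resolution 0.8). Clusters were named from marker lists, and doublets were not removed. Summed counts gave CPM. Ratios added 0.5 UMIs and have exact conditional binomial intervals. Calls needed a 1.5-fold ratio, 20 CPM and an interval without 1 (or without the common ratio). They were tried on simulated counts with planted changes and counting error only. Such counts hold no spread between mice, cells or libraries, so they do not show how the calls fare against it.

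Named were the 6 members with the most UMIs, 6 at each end, those off the common ratio, and paralogs; from other lists, up to 4 with the largest change. Others named were chosen after their values were seen. Members and lists were chosen with earlier results of these data known. Some genes are not reported here.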

Additional observations from a re-analysis of the deposited data

Results flagged for a closer look

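The summed ribosomal protein share moved in opposite directions in different classes. In B-like cells the ratio of cKO to control was 1.114, and in T-like, CD8 T-like, NK-like and DP-like cells it was 0.777, 0.677, 0.986 and 0.685. With 1 library per genotype the difference between classes was not tested. The medians over B-like cells were 32.7% in control and 32.8% in cKO, which are close. The B cell marker list, with immunoglobulin genes, took 86192 CPM in control and 44981 in cKO B-like cells. The T cell marker list took 3328 and 868 CPM there, and the part of either list was not tested. At 8000 UMIs or more cKO B-like cells had the larger share, 31.9% against 24.3% in 37 control cells. Under 1500 UMIs they had the smaller one, 29.3% against 32.0%, and from 1500 to under 3000 UMIs likewise, 29.98% against 32.6%.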

How the results depend on the processing

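No paired analysis was possible because there is 1 library per genotype and no replicate number. The direction of the summed share stayed below 1 in every alternative run. Over all cells its ratio was 0.789 at 5% mitochondrial UMIs, 0.717 without that limit, 0.771 at 1000 genes, 0.781 at 3000 UMIs, 0.690 after thinning to 1500 UMIs (2194 control and 1297 cKO cells left out), 0.732 without the deepest 5% of cells, 0.744 without mitochondrial UMIs, 0.639 as a mean over cells and 0.803 without gut-led and stromal cells. In T-like cells it was 0.779 at 5% mitochondrial UMIs and at 1000 genes, 0.784 at 3000 UMIs, 0.727 after thinning (1060 control and 53 cKO cells left out) and as a mean over cells, 0.762 without the deepest 5% of cells and 0.764 without mitochondrial UMIs. Clusters at resolution 1.2 gave 0.775, the marker gate 0.793, cells without a gut-list UMI 0.756, and T-like cells without cluster 4, chosen after seeing the data, 0.947.

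Members past the size rule, 12 over all cells, were 7 at 5% mitochondrial UMIs, 20 without that limit, 35 after thinning, 33 with median scaling, 49 and 1 at 1.3-fold and 2-fold, and 6 without gut-led and stromal cells. In T-like cells, 13 became 29 after thinning, 33 with median scaling, 43 and 1 at 1.3-fold and 2-fold, 8 in the marker gate, 21 without gut-list UMIs and 1 without cluster 4. Members off the common ratio, 3 and 8, were 16 and 16 at 1.3-fold, 1 and 0 at 2-fold, and 1 in T-like cells without cluster 4. Of 416 recomputed log2 ratios of 26 named members, 389 kept their sign; the others were ratios not past the size rule. Without the mitochondrial limit T-like cells were not run, since the added cells were not clustered. The counting intervals are narrow, and the spread between mice is not measured.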
